A study of Homo sapiens with 2 samples.

Results

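A set of 7 transcription factors that specify kidney cells in the embryo or mark them later, PAX2, PAX8, LHX1, HNF4A, EMX2, WT1 and SIX2, were followed in the renal cancer line 786-O and in a line derived from it that is labelled as holding working VHL. The members were the probe sets annotated to exactly 1 of these symbols, which gave 16 probe sets of 54613 on the array, for 6 of the 7 genes. No probe set was annotated here to HNF4A, which was therefore not analysed here. PAX8 had 8 probe sets, PAX2, WT1 and SIX2 had 2 each, and LHX1 and EMX2 had 1 each.

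Total RNA was labelled with biotin and hybridised to 2 arrays. 1 array held RNA of 786-O, a human clear-cell renal carcinoma line whose VHL allele is mutated, and the other that of a line made from 786-O that, by its labels, carries a functional VHL allele and is called the VHL-labelled line here. VHL is the part of a ubiquitin ligase that recognises HIF alpha subunits, and the series comes from work on the picornavirus EMCV. The labels name no infection or treatment of either line, and they do not say how the allele was introduced or whether the derived line is 1 clone. A lone array per line allows no test and no error between cultures, so every difference is a description of these arrays, and line and array cannot be told apart.

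The VHL values did not bear out the label, but they were too dim to check it. The brighter VHL probe set read 28.9 in 786-O and 15.96 in the VHL-labelled line, a difference of -0.49, with the second value below the floor of 22.3 that is explained with the results. The other probe set read 6.32 and 7.96, below the floor on both arrays. Whether either probe set would detect the introduced allele is not given in the sources used here, so the direction of every difference rests on the array labels, which VHL did not bear out.

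PAX2 and PAX8 are paired-box factors that act early in the nephric lineage, and PAX8 is used by pathologists as a marker of renal epithelial tumours. LHX1, a LIM homeobox factor, and EMX2 act in the nephric duct and its branches, SIX2 keeps nephron progenitors undifferentiated, and WT1, a zinc-finger factor, acts in the progenitor mesenchyme and later in podocytes. HNF4A is a nuclear receptor of the proximal tubule.

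The promoters of the members whose values the comparison turned on are shown first, with PAX2 beside its paralog PAX8. They are RefSeq sequences of GRCh38.p14, from 250 bases before to 50 after the listed start of transcription, and the table used holds windows for 6 of the 7 members, all but LHX1. PAX8 has the window chr2:113278872-113279171 on the minus strand. The most upstream of the starts listed for WT1 has chr11:32435490-32435789 on the minus strand, and that for PAX2 chr10:100735146-100735445 on the plus strand. Capitals mark ACGTG or GCGTG on either strand, the core that HIF binds.
PAX8: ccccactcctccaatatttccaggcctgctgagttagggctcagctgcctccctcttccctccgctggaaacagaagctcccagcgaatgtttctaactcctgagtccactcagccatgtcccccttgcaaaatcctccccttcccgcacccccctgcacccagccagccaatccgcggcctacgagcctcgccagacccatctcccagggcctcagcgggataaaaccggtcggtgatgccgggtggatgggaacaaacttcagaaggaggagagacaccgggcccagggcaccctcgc
WT1: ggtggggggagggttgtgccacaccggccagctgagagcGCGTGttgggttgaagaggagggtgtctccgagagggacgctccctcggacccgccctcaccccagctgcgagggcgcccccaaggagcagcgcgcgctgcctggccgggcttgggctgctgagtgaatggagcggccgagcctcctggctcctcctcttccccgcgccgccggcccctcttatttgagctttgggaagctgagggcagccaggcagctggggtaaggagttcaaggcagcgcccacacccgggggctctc
PAX2: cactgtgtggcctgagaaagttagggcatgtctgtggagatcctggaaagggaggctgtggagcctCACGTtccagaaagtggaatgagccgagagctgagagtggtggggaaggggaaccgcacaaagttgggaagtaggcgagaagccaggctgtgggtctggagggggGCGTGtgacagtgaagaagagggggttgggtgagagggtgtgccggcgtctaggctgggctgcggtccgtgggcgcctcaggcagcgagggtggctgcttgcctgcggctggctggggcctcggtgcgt
The PAX8 window held 0 matches, the WT1 window 1 and the PAX2 window 2, which do not overlap each other. The other 3 windows listed for WT1 held 1 match each, and the other listed for PAX2 held 0. Of 35116 promoter windows of that length, 48.4% held at least 1 match to either motif, 21.4% to ACGTG and 36.5% to GCGTG. A match describes letters in the window and not a site of binding.

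All 8 probe sets of PAX8 read lower in the VHL-labelled line, by 1.22-fold to 2.12-fold. WT1 was lower on both of its probe sets, by about 1.3-fold on each. PAX2 and LHX1 differed little, and EMX2 and SIX2 stayed under the level counted as measured. A lower value can come from fewer cells that hold the transcript or from less of it per cell, which these arrays cannot tell apart. Differences are log2(VHL-labelled + 16) minus log2(786-O + 16) of the deposited intensities, in arbitrary units, and folds come from them, so those of dim probe sets are drawn towards 1. The floor for a measured probe set was the median of all values on both arrays, 22.3, to be passed on at least 1 array. In all, 13 of the 16 probe sets were above the floor, of 4 genes. Of these 13, 10 were lower in the VHL-labelled line, 2 higher and 1 identical. Among all 24414 single-gene probe sets above the floor, 44.1% were lower. PAX8 supplied 8 of the 10 lower ones, so the 13 are not separate genes. By the probe set of each gene with the highest mean, PAX8 and WT1 were lower and PAX2 and LHX1 higher.

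**Figure D1:**
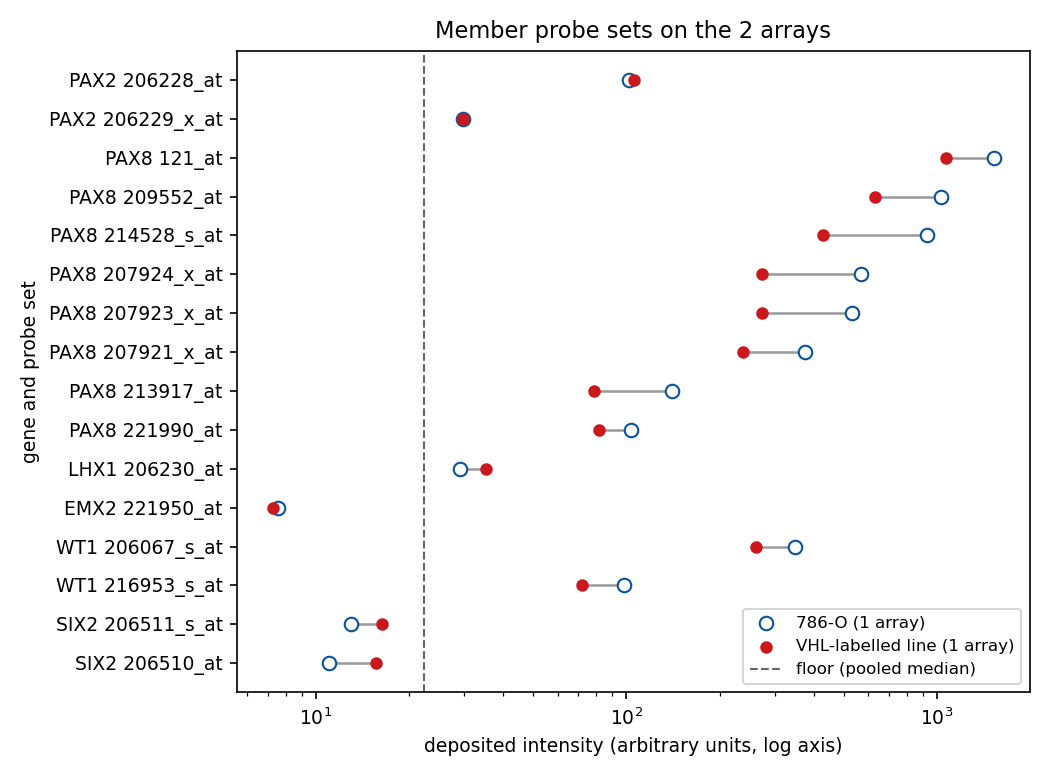
Deposited intensity of the 16 member probe sets on the array of 786-O (open circles) and of the VHL-labelled line (filled circles), on a log axis in arbitrary units, with 1 array per line and no error bars. All 8 PAX8 and both WT1 probe sets lie further left in the VHL-labelled line, and EMX2 and SIX2 lie left of the dashed floor at 22.3.

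The brightest PAX8 probe set, 121_at, read 1521 in 786-O and 1068 in the VHL-labelled line. 209552_at read 1032 and 633. These had log2 differences of -0.50 and -0.69.

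The largest PAX8 differences were on 214528_s_at and 207924_x_at. 214528_s_at read 930 in 786-O and 430.2 in the VHL-labelled line, a difference of -1.08 (2.12-fold). 207924_x_at read 569 and 272, a difference of -1.02 (2.03-fold). These were the only members at least 2-fold apart, 2 of 13 (15.4%), against 4.11% of all single-gene probe sets above the floor and 2.7% for 2-fold lower alone. PAX8 holds 8 of the 13, so this share counts the same gene repeatedly. Taken by gene, each by its probe set with the highest mean, no member reached 2-fold, where 3.72% of all genes above the floor did. Both carry a suffix that marks probes shared between transcripts (_s_at) or open to other sequences (_x_at).

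207923_x_at read 534 in 786-O and 273 in the VHL-labelled line, just short of 2-fold at 1.90-fold. 207921_x_at read 375 and 238, a difference of -0.62. The 4 suffixed probe sets had a median difference of -0.97, from -1.08 to -0.62, and the 4 without a suffix one of -0.60, from -0.72 to -0.29. So the direction was shared by both kinds, and 0 of the 4 without a suffix reached 2-fold.

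The dimmest PAX8 probe sets showed the same direction. 213917_at read 140.3 in 786-O and 78.8 in the VHL-labelled line, a difference of -0.72. 221990_at read 103 and 81.7, the smallest PAX8 difference at -0.29.

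Over the 8 PAX8 probe sets the median difference was -0.71 and the SD 0.27. The spread within a gene, as the root mean square of SDs over 6436 genes with at least 2 probe sets above the floor, was 0.32. That spread covers probes on the same pair of arrays and not cultures, and the 8 probe sets share transcript, RNA and array, so they are not replicates. Of 431 genes with at least 5 probe sets above the floor, 13.5% were lower in the VHL-labelled line on all of them and 4.87% had a median at or below that of PAX8. PAX8-AS1, a noncoding RNA overlapping PAX8, lay below the floor on its 3 probe sets, between 9.71 and 19.9 on both arrays.

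**Figure D2:**
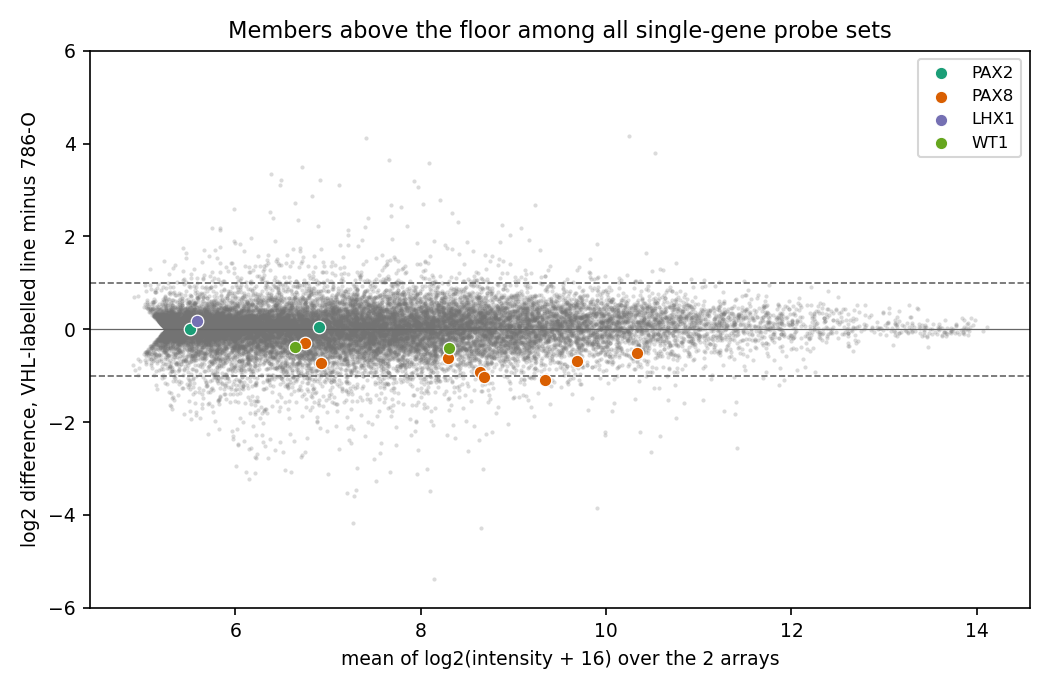
Log2 difference (VHL-labelled minus 786-O) against the mean log2(intensity + 16) of the 2 arrays. Grey points are all 24414 single-gene probe sets above the floor, coloured points are the 13 members above it, and dashed lines mark 2-fold. PAX8 lies from -1.08 to -0.29 at all its levels, WT1 near -0.4, and PAX2 and LHX1 near 0.

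PAX2, the closest relative of PAX8 among the members, read nearly the same on both arrays. Its probe set 206228_at read 102 in 786-O and 106 in the VHL-labelled line, a difference of 0.05. Its other probe set, 206229_x_at, read 29.7 on both arrays to every deposited digit. Identical pairs of values occurred in 2127 probe sets of the table (3.89%), and in 1.37% of single-gene probe sets above the floor. 206228_at differed by a whole number, 4, as 627 probe sets (1.15%) did by some whole number other than 0, within 5e-07. How the submitters' summary made such values is not given in the sources used here, so it is not known how far the PAX2 pair could show a difference.

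WT1 was measured by 2 probe sets with the same direction. 206067_s_at read 348 in 786-O and 261 in the VHL-labelled line, a difference of -0.39. 216953_s_at read 98.3 and 72.2, a difference of -0.37. Neither reached 2-fold, and of 3585 genes with 2 probe sets above the floor 28.3% were lower on both. Both WT1 probe sets end in _s_at. WT1-AS, transcribed from the opposite strand beside WT1, was below the floor at 14.7 and 13.8.

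LHX1 had 1 probe set, which read 29.2 in 786-O and 35.3 in the VHL-labelled line, a difference of 0.18 close to the floor. SIX2 read 13.0 and 16.4 on 206511_s_at and 11.1 and 15.6 on 206510_at, all below the floor, so no fold is given. EMX2 read 7.56 and 7.30, also below the floor, as was its antisense neighbour EMX2OS on both of its probe sets. HNF4A-AS1, antisense to HNF4A, was below it too, at 9.02 and 7.18. For EMX2 and SIX2 a level below the floor sets no bound on whether the genes were transcribed.

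The genes beside each measured member, 3 on either side in chromosome order among genes above the floor, differed between members. Around PAX8 on chromosome 2, 3 of 6 neighbours were higher in the VHL-labelled line and 3 lower, all between -0.14 and 0.09, with PSD4 at 0.03 on one side and SLC35F5 at 0.00 on the other. PAX8 at -0.50 thus differed from genes on both sides that were almost level. Of these, PSD4 (44.0 and 45.3), IL1RN (62.7 and 55.6) and LINC01191 (22.8 and 25.3) were dim, which draws differences towards 0. The brightest, SLC35F5 and ACTR3, lay on the same side of PAX8.

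Around WT1 on chromosome 11, 5 of 6 neighbours were lower and their median was -0.48, below WT1 itself at -0.39. They included PAX6, a paired-box factor of eye and brain and a paralog of PAX8, which read 194 in 786-O and 94.2 in the VHL-labelled line (-0.93, and -0.74 on its other probe set). RCN1 differed by -0.38, EIF3M by -0.14, QSER1 by -0.71 and DEPDC7 by -0.59, whereas ELP4 differed by 0.14. Of 13125 such windows along the genome, 8.85% had at least 5 lower neighbours and 1.07% a median at or below that around WT1, a comparison chosen after the WT1 window was seen. The part of this shared shift in the WT1 difference was not tested.

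Around PAX2 on chromosome 10 all 6 neighbours were higher, from 0.02 for HIF1AN, which encodes the asparaginyl hydroxylase of HIF, to 0.52 for NDUFB8, and 6.5% of windows were higher throughout. Around LHX1 on chromosome 17, the neighbours ranged from -0.06 for MRM1 to 0.71 for DHRS11. None of the neighbours of any member was 2-fold apart, where 3.72% of all genes above the floor were.

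**Figure D3:**
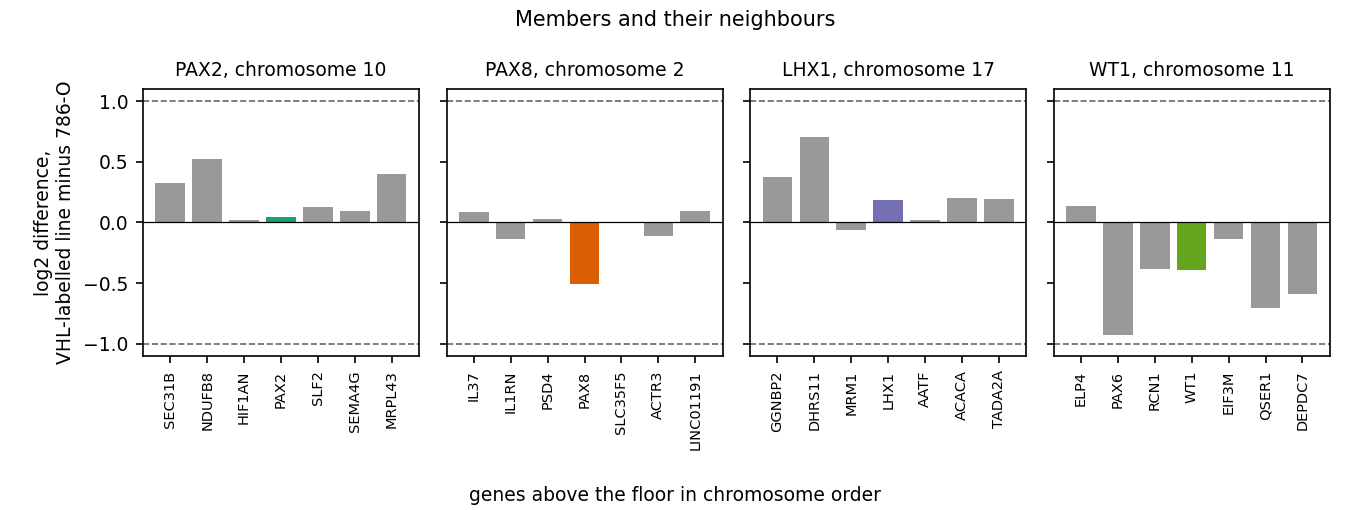
Log2 difference (VHL-labelled minus 786-O) of the 4 measured members (coloured bars) and of the 3 nearest genes above the floor on either side (grey bars), in chromosome order, with dashed lines at 2-fold. PAX8 at -0.50 stands between neighbours from -0.14 to 0.09, while 5 of the 6 genes beside WT1 are also lower.

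The other regulators of kidney development were taken from 5 lists with 63 genes, of which 52 had a single-gene probe set and 33 were above the floor. Of the 33, 19 were higher in the VHL-labelled line, 12 lower and 2 identical, with a median of 0.06 against 0.05 over all 13291 genes above the floor. Among them LMX1B, TBX18 and WNT4 passed the floor only in the VHL-labelled line, and POU3F3 only in 786-O. None was at least 2-fold higher, where 1.54% of all genes above the floor were, and 3 were at least 2-fold lower, where 2.18% were. The 3 were FOXD1, POU3F3 and SIM1, 9.09% of the 33 against 3.72% of all genes 2-fold apart either way. Each gene is given by its probe set with the highest mean, and the absence of a gene 2-fold higher rests on that choice. On another probe set above the floor MAF differed by 1.30 and JAG1 by 1.07.

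FOXD1, a forkhead factor of the renal stroma, read 707 in 786-O and 238 in the VHL-labelled line on its only probe set, 2.85-fold lower. POU3F3, a POU factor of the loop of Henle, read 79.0 and 17.2, the latter below the floor, which made it at least 2.48-fold lower. SIM1, a bHLH-PAS factor, read 73.3 and 24.05, a difference of -1.16, with -1.18 on the other of its probe sets above the floor.

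Among tubule segment factors above the floor, 4 of 5 were lower in the VHL-labelled line, and their median was -0.52. Of all single-gene probe sets above the floor 44.1% were lower, and POU3F3 passed the floor only in 786-O. MAF, a bZIP factor, was the exception at 0.94, with 1.30 on another probe set. PPARA, a receptor for fatty acids, was lower on all 6 of its probe sets above the floor, from -0.69 to -0.26. Of 431 genes with at least 5 probe sets above the floor, 13.5% were lower on all of them. IRX3 differed by -0.19. HNF4G, the paralog of HNF4A, was below the floor.

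Nephron progenitor regulators lay near 0, with a median of -0.01 over 6 genes above the floor. SALL1 read 173 and 169, with 2 probe sets from -0.03 to 0.36. CITED1 differed by 0.07 and HOXD11 by -0.51. HOXD10 differed by -0.22, but its 3 probe sets ranged from -0.80 to 0.25. EYA1, a cofactor of SIX2 and its relatives, and OSR1 were below the floor on both arrays, as SIX2 was.

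Of the duct regulators GFRA1, a co-receptor for GDNF, read 364 in 786-O and 211 in the VHL-labelled line, and its 3 probe sets ranged from -0.74 to -0.41. RET, its signalling partner, was below the floor. ETV5, which acts downstream of RET in the ureteric bud, differed by 0.50, though its probe sets above the floor ranged from -0.08 to 0.73. SOX9 and TFAP2A differed by 0.05 and -0.11, the 2 probe sets of SOX9 from -0.12 to 0.05.

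Among podocyte and stromal factors other than FOXD1, TEAD1, a partner of YAP, differed by -0.59, MEIS2 by 0.37 and FOXC2 by 0.10. Of the nephron-inducing signals 6 of 9 above the floor were higher and 1 lower, where 44.1% of all single-gene probe sets above the floor were lower. WNT4, among the higher, passed the floor only in the VHL-labelled line, at 22.4. The Notch ligand gene JAG1 read 774 and 1208, a difference of 0.63 with 6 probe sets from -0.12 to 1.07. LFNG, which modifies Notch, differed by 0.35, NOTCH2 by -0.16 and NOTCH1 by 0.06. NOTCH2 was the 1 counted as lower, but its 3 probe sets above the floor ranged from -0.16 to 0.28.

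Paralogs of the members were mostly dim. Of 20 with a probe set, 10 were above the floor, 6 higher and 4 lower, with a median of 0.06, and none was 2-fold apart. Of all single-gene probe sets above the floor 44.1% were lower, and 3.72% of all genes above it were 2-fold apart. Among the paralogs PAX6 at -0.93 was the lowest, SIX4 and SIX5 differed by -0.06 and -0.04 and EMX1 by 0.22. SIX5 was counted as lower, but its 2 probe sets above the floor ranged from -0.04 to 0.42. Within the paired-box family PAX8 and PAX6 were thus lower on every probe set above the floor, while PAX2, PAX4 and PAX5 differed by 0.05, 0.09 and 0.12.

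Genes known as targets of HNF4A, which was itself not analysed here, and of WT1 were also read. Of 10 HNF4A targets above the floor 7 were higher in the VHL-labelled line and 2 lower, with a median of 0.16. Over all 13291 genes above the floor the median was 0.05, and 44.1% of all single-gene probe sets above it were lower. APOA1, APOH and APOM, among the higher, passed the floor only in the VHL-labelled line, so they could only be counted as higher. Of the 10 targets AMBP alone was 2-fold apart, where 3.72% of all genes above the floor were. AMBP, which encodes the precursor of alpha-1-microglobulin and bikunin, read 58.5 and 188, 2.74-fold higher, on the probe set above the floor of its 2. SERPINA1, a protease inhibitor gene, differed by 0.35, APOA4 by 0.25 and CYP3A4 by -0.17. Of 5 podocyte genes regulated by WT1, PTPRO, a receptor phosphatase, differed by -0.66 and PODXL by -0.27, while CTSL and SYNPO differed by 0.42 and 0.40, the probe sets of SYNPO from -0.06 to 0.40, and none was 2-fold apart. The median of these 5 was 0.00, the value of BMP7, which read 49.8 on both arrays to every digit given here. Its other probe set above the floor differed by 0.31.

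**Figure D4:**
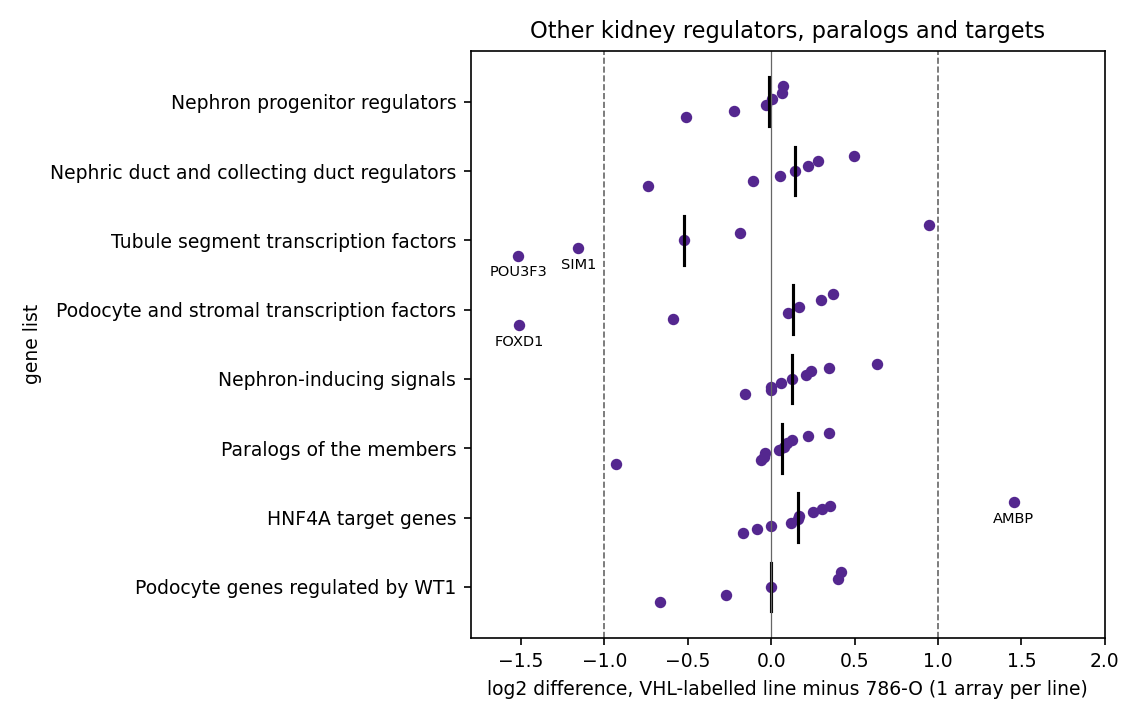
Log2 difference (VHL-labelled minus 786-O, 1 array per line) of each gene above the floor in 8 lists, with the list median as a black bar and dashed lines at 2-fold. FOXD1, POU3F3 and SIM1 are named below and AMBP above the 2-fold lines.

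Markers of the labelled cell type and of other cell types were read. All 8 genes listed for renal carcinoma lines were above the floor on both arrays, with KRT18 at 5315 and 4960, VIM at 13034 and 12498, KRT8 at 1771 and 2116 and MET at 1809 and 1967, and none was 2-fold apart. Of leukocyte markers 2 of 6 were above the floor, and PTPRC, CD3E and CD14 were not. The sum of those above it, 947 in 786-O against 101 in the derived line, came mainly from LCP1 (908 and 66.1). Of endothelial markers 4 of 8 were above it, with sums of 99.8 and 118 and CDH5 and KDR below. Of those above it, PECAM1 (21.1 and 26.7) and VWF (19.9 and 28.9) passed the floor only in the VHL-labelled line. TEK read 23.6 and 27.2, and CLDN5 read 35.2 on both arrays. Of fibroblast and pericyte markers 4 of 8 were above it, with COL1A2, COL3A1 and DCN below. Their sums of 223 and 179 hold differences in opposite directions. PDPN, a membrane glycoprotein gene, read 61.5 and 19.96, the latter below the floor, and was at least 2.02-fold lower, with 3 probe sets from -1.79 to -1.11. LUM, a matrix proteoglycan gene, read 5.64 and 37.1, the former below the floor, and was at least 1.39-fold higher. The part of any marker in the PAX8 and WT1 differences was not tested.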

How the data were processed

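Total RNA of 786-O and of the VHL-labelled line was measured on 1 array each. The deposited intensity of each probe set is on a linear scale, as its range shows. R 2.10 is the only tool in the submitters' processing notes, and the sources used here do not give the background correction, normalization or probe summary. Those steps could compress or tie values.

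Of 54613 probe sets, 41091 name 1 gene, 1801 several and 11721 none here; 41037 were matched to current symbols by Entrez number. Only single-gene probe sets were used. Values were taken as log2(intensity + 16), with the floor at the pooled median, and a gene by its probe set with the highest mean log2 value. Neighbours follow the GRCh38.p14 gene order.

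The members and lists were chosen with earlier results of these data known. The naming rule took the members, VHL, neighbours, list genes at least 2-fold apart and up to 4 of each list with the highest mean; others were named after their values were seen. No gene was sought for likeness of pattern, since 2 arrays give 1 difference per gene. The size rule was tested on simulated data with shifts planted in bright genes only. That does not cover the recovery of shifts in dim genes. Alternatives were pseudocounts of 1 and 64, quantile normalization, removal of the intensity trend, no floor, the 75th percentile as floor, a gene's median over probe sets, probe sets without suffixes, and a 1.5-fold rule. Python 3.11.15, numpy 2.4.6, pandas 2.3.3, statsmodels 0.14.6 and matplotlib 3.10.9 were used.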

Additional observations from a re-analysis of the deposited data

How the results depend on the processing

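Over the alternatives that gave a value, the 51 PAX8 probe set values lay from -1.15 to -0.20. The 11 of WT1 lay from -0.44 to -0.25. Another pseudocount or floor, or leaving out suffixed probe sets, cannot turn the sign of a probe set's difference. Only quantile normalization and removal of the intensity trend could. PAX8 probe sets then ranged from -1.11 to -0.24 and from -1.15 to -0.31. Those of WT1 were at -0.41 and -0.34 with the former, and -0.44 and -0.40 with the latter. The PAX2 probe set with identical values lay at -0.05 with the intensity trend removed. By gene, PAX8 ranged from -0.71, over the median of probe sets, to -0.49 with a pseudocount of 64. The number of member probe sets at least 2-fold apart, 2 of 13, was 1 with a pseudocount of 64, 0 of 6 without suffixed probe sets and 6 with the 1.5-fold rule. The number of kidney regulators at least 2-fold apart, 3 of 33, was 1 with a pseudocount of 64, 1 of 19 with the floor at the 75th percentile and 7 with the 1.5-fold rule, of which 2 were higher; 1 was higher with a pseudocount of 1 and 1 without suffixed probe sets. Over all genes 495 were at least 2-fold apart, against 256 with a pseudocount of 64, 305 over the median of probe sets and 1702 with the 1.5-fold rule. WT1 gave no value without suffixed probe sets, and PAX2 and LHX1 none with the floor at the 75th percentile. No paired analysis was possible because the lines had a lone array each, which also leaves no replicate to omit. Signal close to the floor limits LHX1, SIX2 and EMX2.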
